A study of Mus musculus with 6 samples.

Results

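The Notch pathway of endothelial cells (ECs) was followed here in choroid ECs of young and adult mice through 10 genes. They are the ligands Dll1, Dll4, Jag1 and Jag2, the receptors Notch1 and Notch4, and the target genes Hes1, Hey1, Hey2 and Heyl. They were picked out by gene symbol from the 22026 gene rows of the RNAseq values, and all 10 were found in every sample. The list was drawn up with earlier results of these data known. The choroid is the vascular bed behind the retinal pigment epithelium (RPE). Its ECs were labelled in living 129/B6 mice by injecting an antibody against VE-Cadherin, which joins ECs to each other. They were collected by flow cytometry at postnatal day 5 (P5) or 30 (P30). Apart from this injection and anaesthesia, no treatment and no engineered allele are named. P5 mice were anaesthetized by hypothermia and given less antibody than P30 mice, so this handling cannot be told apart from age. There were 3 isolations per age, each pooled from 7 animals, so the spread between isolations is not that between single animals, and the age comparison has 3 values a side. Values are FPKM as deposited by the authors, that is, sequenced fragments scaled to transcript length and, between samples, to the upper quartile. They are per length, so levels of different genes can be set beside each other. The depth of each sample is unknown.

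Notch receptors are cell surface proteins that are switched on by ligands on a neighbouring cell. Ligand binding lets the protease Adam10 and then the γ-secretase complex cut the receptor, and the freed intracellular part enters the nucleus. There it joins the DNA-binding protein Rbpj and turns on genes such as those of the Hes and Hey families, which encode transcriptional repressors. In blood vessels the pathway is known for restraining sprouting behind the tip cell, where Dll4 acts, for arterial identity, and for the exchange of signals between ECs and the mural cells around them. Heyl and Notch3 are best known from mural cells, the pericytes and smooth muscle cells, rather than from ECs.

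Of the 10 genes, 5 rose from P5 to P30 at an adjusted p under 0.01 (limma on log2(FPKM + 1), Benjamini-Hochberg over the 12481 genes tested). These were the ligands Dll4 and Jag2 and the targets Hes1, Hey1 and Hey2. Among all genes tested, 8.51% rose by that limit. The targets Hes1, Hey1 and Hey2 also differed by at least 2-fold in mean FPKM + 1, which makes 3 of 10 past both limits against 5.89% of all genes tested. None of the 10 fell in limma, either by adjusted p or by both limits, against 10.7% and 5.82% of all genes tested. At an unadjusted p under 0.05, 7 of the 10 were higher at P30, against 20.7% of all genes tested, and 0 were lower, against 28.8%. For 7 of the 10 the lowest P30 isolation was above the highest P5 isolation, against 22.0% of genes tested, and for 0 of the 10 the P30 isolations were all below, against 33.0%. The median difference, P30 minus P5 on the log2 scale, was 0.95 over the 10 genes and -0.10 over all genes tested.

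**Figure D1:**
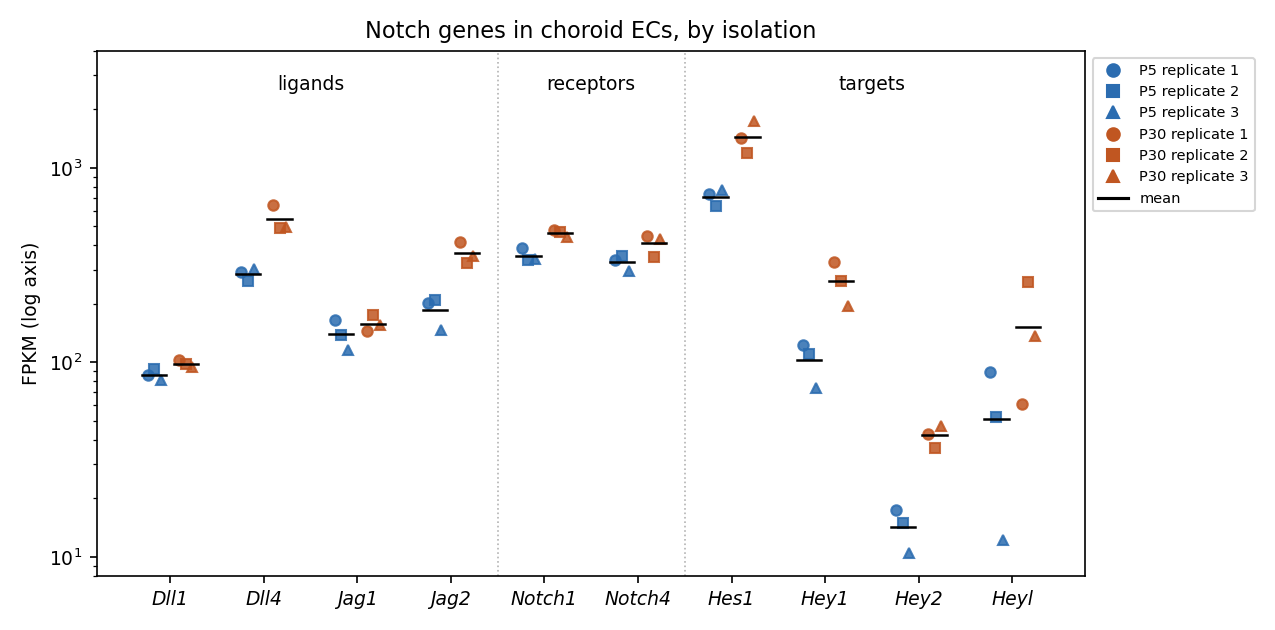
FPKM of each of the 10 genes (vertical log axis) in the 3 P5 and 3 P30 isolations, 1 point per isolation, with a bar at the mean of each age. The P30 points of Hes1 (1196 to 1734) and Hey2 (36.3 to 47.1) lie above every P5 point, whereas the ages overlap for Jag1, Notch4 and Heyl.

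The promoters of the 3 genes past the adjusted p limit that have an entry in the RefSeq promoter table (GRCm38.p6) are shown, because the pathway acts on its targets through Rbpj sites near the start of transcription and because Hes and Hey repressors bind E-boxes. Each runs 5′ to 3′ along the gene's own strand, from 250 bases before the start to 10 after it. Capitals mark CGTGGGAA, a long form of the Rbpj site, on either strand in Hey2, and the E-box form CACGNG in Dll4.
Hey2, chr10:30842774-30843033, minus strand: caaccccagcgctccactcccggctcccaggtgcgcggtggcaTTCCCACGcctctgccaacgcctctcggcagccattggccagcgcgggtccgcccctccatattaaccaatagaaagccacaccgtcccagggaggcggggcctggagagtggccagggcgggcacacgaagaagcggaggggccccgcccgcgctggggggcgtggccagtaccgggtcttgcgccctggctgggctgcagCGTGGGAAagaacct
Dll4, chr2:119325534-119325793, plus strand: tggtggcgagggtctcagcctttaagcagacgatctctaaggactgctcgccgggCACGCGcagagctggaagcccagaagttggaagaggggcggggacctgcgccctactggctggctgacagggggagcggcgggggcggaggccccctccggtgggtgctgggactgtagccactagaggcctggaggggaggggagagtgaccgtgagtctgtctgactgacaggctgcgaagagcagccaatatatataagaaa
Jag2, chr12:112929486-112929745, minus strand: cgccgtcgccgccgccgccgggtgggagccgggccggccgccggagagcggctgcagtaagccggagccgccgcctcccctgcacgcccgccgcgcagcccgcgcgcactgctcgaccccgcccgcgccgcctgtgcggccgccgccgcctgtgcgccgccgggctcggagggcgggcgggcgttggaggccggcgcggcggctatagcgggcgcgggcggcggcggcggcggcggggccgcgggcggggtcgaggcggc

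Hey2 held the long site in both orientations, once on the opposite strand beginning 207 bases before the start and once on the gene's strand beginning 5 bases before it, so that the latter runs across the start. In windows of 300 bases (250 before and 50 after the start), CGTGGGAA was found on either strand in 0.734% of the 32851 promoters in the table. The shorter core TGGGAA, which lies within the long site, was found in 25.6%. Among the 8 windows of the 7 genes with an entry (Dll1 has a pair), Hey2 alone held either form. The E-box form CACGNG, searched on both strands, was found in 27.5% of all windows and in 5 of the 8 windows here, those of Dll1 (both), Dll4, Jag1 and Jag2. In Dll4 it began 195 bases before the start. In Jag2 it began 18 bases after the start, beyond the stretch printed. These matches are letters in a window and no measurement of binding. Hes1, Hey1 and Heyl had no entry.

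All 10 endothelial markers checked were measured in every sample. Their summed FPKM was 19387 to 21422 at P5 and 25150.2 to 29888 at P30. Of the 10, 6 separated the ages upward and 1, Cdh5, downward, against 22.0% and 33.0% of all genes tested. RNA of other cells was also measured, and in a bulk sample fewer cells of a type and less RNA per cell cannot be told apart. The summed FPKM of 7 pericyte markers was 473 to 1644 at P5 and 1792 to 5861 at P30, and that of 6 smooth muscle markers 171 to 282 and 424 to 1309 (Cnn1 at or under 2.46 throughout). For 6 RPE markers the sums were 56.8 to 124 and 418 to 3496, and for 8 photoreceptor markers 2.70 to 9.60 and 41.8 to 366. The sums of 6 fibroblast markers were 422 to 851 and 1443 to 3244, of 5 glial markers 1099 to 2088 and 2762 to 4333 (nearly all of it Glul and Apoe, with Slc1a3 at or under 7.09, Gfap at or under 18.95 and Aqp4 listed at 0 throughout), and of 4 Schwann cell markers 9.75 to 47.1 and 42.4 to 271. For 5 melanocyte markers they were 97.0 to 457 and 119.9 to 1251, for 6 haematopoietic markers 581 to 827 and 263 to 682, and for 3 erythroid markers 151 to 484 and 433 to 1394. Of the haematopoietic markers 4 of 6 were lower in every P30 isolation, and Ptprc, Cx3cr1 and Aif1 fell past both limits. All 6 proliferation genes fell past both limits, with sums of 561 to 1003 at P5 and 5.38 to 13.1 at P30. The part of these other cells in the differences given next was not tested.

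Among the ligands, Dll4 and Jag2 rose and Jag1 and Dll1 did not pass the test. Dll4, the ligand of endothelial tip cells and arteries (chromosome 2, 119151520 to 119161698, plus strand, mm9, GENCODE M1), had an FPKM of 291, 261 and 301 in P5 replicates 1, 2 and 3. It had 644, 489.8 and 498 in the P30 replicates, so the lowest P30 isolation lay well above the highest P5 one. The mean rose from 284 ± 20.8 (SD, n = 3) to 544 ± 86.6 (SD, n = 3), a log2 difference of 0.92 (SE 0.13, 95% interval 0.62 to 1.23, limma adjusted p = 0.00202), just short of the 2-fold limit at 1.91-fold. Exons of Dll4 share 214 bases with those of Gm14207 on the opposite strand, and the kit does not mark strand. Gm14207 itself was listed at 8.67 to 9.99 at P5 and 12.6 to 41.5 at P30.

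Jag2 (chromosome 12, 114146801 to 114167706, minus strand), a Jagged ligand, rose by almost the same amount. Its FPKM was 201, 209.7 and 147 at P5 and 414, 326 and 352 at P30, with no overlap. The mean went from 186 ± 33.9 to 364 ± 45.3 (SD, n = 3 each), a log2 difference of 0.98 (SE 0.16, 95% interval 0.60 to 1.35, limma adjusted p = 0.00377), or 1.95-fold in mean FPKM + 1.

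The other Jagged ligand, Jag1 (chromosome 2, 136907192 to 136942380, minus strand), known for opposing Dll4 during sprouting, did not pass the test. Its FPKM was 165, 138 and 116 at P5 and 146, 174 and 155 at P30, and the ages overlapped. The log2 difference was 0.19 (SE 0.15, 95% interval -0.16 to 0.54, limma adjusted p = 0.334). Dll1 (chromosome 17, 15504318 to 15513836, minus strand), a Delta ligand of arterial ECs, had 86.1, 92.5 and 80.9 at P5 and 103, 97.5 and 94.3 at P30. The ages did not overlap, but the gap was small, and the log2 difference of 0.18 (SE 0.11, 95% interval -0.06 to 0.43) did not pass (limma adjusted p = 0.204). Dll1 shares 867 exon bases with A930024N18Rik on the opposite strand.

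Added together, the 4 ligands had a summed FPKM of 743, 701 and 645 at P5 and 1306, 1087 and 1099 at P30, which is 1.67-fold in the mean. Within the sum, the share of Jag1 was 19.9% ± 2.15 at P5 and 13.8% ± 2.45 at P30 (SD, n = 3 each), and that of Dll1 12.4% ± 0.812 and 8.48% ± 0.545. Dll4 made up 41.0% ± 5.00 and 46.5% ± 2.37, and Jag2 26.6% ± 3.57 and 31.2% ± 1.09. Dll4 was thus the leading ligand at both ages.

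Both receptors were high at P5 and differed little between ages. Notch1 (chromosome 2, 26313423 to 26372183, minus strand), the main receptor of sprouting ECs, had 386, 335 and 338 at P5 and 479.6, 466 and 439 at P30. All P30 isolations were above all P5 isolations, by a log2 difference of 0.39 (SE 0.10, 95% interval 0.16 to 0.61), but the limma adjusted p of 0.0182 missed 0.01. Exons of Notch1 share 1068 bases with 0610009E02Rik and 414 with Gm13568, both on the opposite strand. Notch4 (chromosome 17, 34701213 to 34725448, plus strand), a receptor largely restricted to ECs, had 336, 351 and 295 at P5 and 445, 349.9 and 431 at P30. P30 replicate 2 lay within the P5 range, and the log2 difference of 0.32 (SE 0.13, 95% interval 0.02 to 0.61) did not pass (limma adjusted p = 0.0826). The summed FPKM of the receptors was 722, 686 and 633 at P5 and 924, 816 and 870.2 at P30, 1.28-fold in the mean.

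Of the 4 targets, Hes1, Hey1 and Hey2 rose past both limits and Heyl did not pass the test. Hes1 (chromosome 16, 30064470 to 30067882, plus strand), a repressor that many cell types express, had 730.0, 638 and 767 at P5 and 1417, 1196 and 1734 at P30. The ages did not overlap, and Hes1 was the highest of the 10 genes in every sample. The mean rose from 712 ± 66.5 to 1449 ± 270.4 (SD, n = 3 each), a log2 difference of 1.01 (SE 0.15, 95% interval 0.66 to 1.37, limma adjusted p = 0.00251). Its 2.03-fold change in mean FPKM + 1 is just past the 2-fold limit.

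Hey1 (chromosome 3, 8663362 to 8667039, minus strand), an endothelial target of Notch, had 123, 111 and 73.6 at P5 and 328, 261 and 196 at P30, with no overlap. The mean rose from 103 ± 25.9 to 262 ± 66.4 (SD, n = 3 each), a log2 difference of 1.34 (SE 0.24, 95% interval 0.77 to 1.91, limma adjusted p = 0.00543). Hey2 (chromosome 10, 30552165 to 30562607, minus strand), known for its part in arterial fate, was the lowest of the 10 by mean at both ages. It had 17.4, 14.8 and 10.5 at P5 and 42.9, 36.3 and 47.1 at P30, so that the ages were again apart. The mean rose from 14.3 ± 3.51 to 42.1 ± 5.47 (SD, n = 3 each), a log2 difference of 1.52 (SE 0.22, 95% interval 1.0 to 2.03, limma adjusted p = 0.00225). In rank of level among the 22026 genes, Hey2 stood at percentile 54.0 at P5 and 68.3 at P30. The RPE marker sum was 3496, 1932 and 418 in P30 replicates 1, 2 and 3. Hey1 had the same order at P30, as did Sox17 and Bmx of the wider pathway, whereas Hes1 and Hey2 were highest in replicate 3. The order was not particular to RPE markers. Notch1, Dll1 and the photoreceptor, Schwann cell and melanocyte sums had it too. So did the geometric mean of the 10 endothelial markers, at 2385, 2081 and 2069. The part of RPE RNA in these values was not tested.

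Without P5 replicate 2, limma adjusted p values were 0.0163 for Hes1, 0.0197 for Hey1, 0.0129 for Hey2, 0.0140 for Dll4 and 0.0113 for Jag2, so none of the 5 rises passed 0.01, while the log2 differences stayed between 0.86 and 1.56. Without P5 replicate 1 or 3, Hey2 alone passed both limits (adjusted p = 0.00581 and 0.00901), and without P30 replicate 2, Hes1, Hey2, Dll4 and Jag2 did. Without P30 replicate 1, Hes1 and Hey2 passed both limits, and Hey1 (limma adjusted p = 0.0133) and Jag2 (0.0102) missed 0.01. With isolations left out, Hey1 passed 0.01 only without P30 replicate 3 (0.00446). There Hes1 fell short of the 2-fold limit (log2 difference 0.87). With no filter on low values none of the 5 passed (limma adjusted p of 0.0171 for Dll4 to 0.0432 for Hey1), and without the trend Hey1 (0.0142) and Jag2 (0.0112) did not.

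Heyl stood apart from the other targets in its spread. Heyl (chromosome 4, 122910799 to 122927118, plus strand), a Hey family repressor, had 89.0, 52.2 and 12.2 at P5 and 61.4, 259.5 and 136 at P30. The ages overlapped, since P30 replicate 1 was below P5 replicate 1. Its mean was 51.2 ± 38.4 at P5 and 152 ± 100.01 at P30 (SD, n = 3 each), a fold of 2.98 like that of Hey2, but the log2 difference of 1.71 had an SE of 0.75 and a 95% interval from -0.05 to 3.48 (limma adjusted p = 0.109). From its lowest to its highest isolation Heyl spanned 21.3-fold, against 4.49-fold for Hey2 and 1.27-fold for Dll1.

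Some mural genes had a span as wide, and others did not. Notch3, the receptor of mural cells, was listed at 124, 66.7 and 23.6 at P5 and 107, 498 and 285 at P30, a span of 21.04-fold and a log2 difference of 2.07 (SE 0.70, limma adjusted p = 0.0503). The pericyte markers Rgs5 and Pdgfrb had 1042, 491 and 208 and 226, 111 and 48.6 at P5, and 1283, 4082 and 2660.2 and 230.3, 993 and 491 at P30. The smooth muscle markers Acta2 and Mylk had 76.9, 53.9 and 47.3 and 109, 97.4 and 85.8 at P5, and 208, 442 and 102 and 141, 246 and 122 at P30. Heyl, Notch3, Rgs5 and Pdgfrb had the same order of the 3 isolations within each age, whereas Acta2 and Mylk had P30 replicate 1 above replicate 3. The other smooth muscle markers were named after their values were seen. Des had the order of Heyl, with 39.7, 24.3 and 8.87 at P5 and 65.8, 215 and 103 at P30. Myh11 (2.13 to 11.3 at P5 and 31.8 to 136 at P30), Tagln and Cnn1 had P30 replicate 1 above replicate 3. Among the other pericyte markers, also named after their values were seen, Cspg4, Kcnj8 and Anpep had the order of Heyl in both ages. Higd1b had it at P30 and was listed at 0 in P5 replicates 2 and 3. Abcc9 had it at P30 only, and was listed at 92.5 to 259 at P30 and 159 to 199 at P5, with overlapping ages. The ratio of Heyl to Notch3, a pair chosen after their values were seen, was 0.717, 0.783 and 0.516 at P5 and 0.573, 0.521 and 0.479 at P30, a span of 1.63-fold. Heyl to Pdgfrb was 0.394, 0.471 and 0.251 at P5 and 0.267, 0.261 and 0.278 at P30. Heyl to Rgs5 was 0.0854, 0.106 and 0.0587 at P5 and 0.0479, 0.0636 and 0.0513 at P30. The part of mural cells in the Heyl values was not tested.

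**Figure D2:**
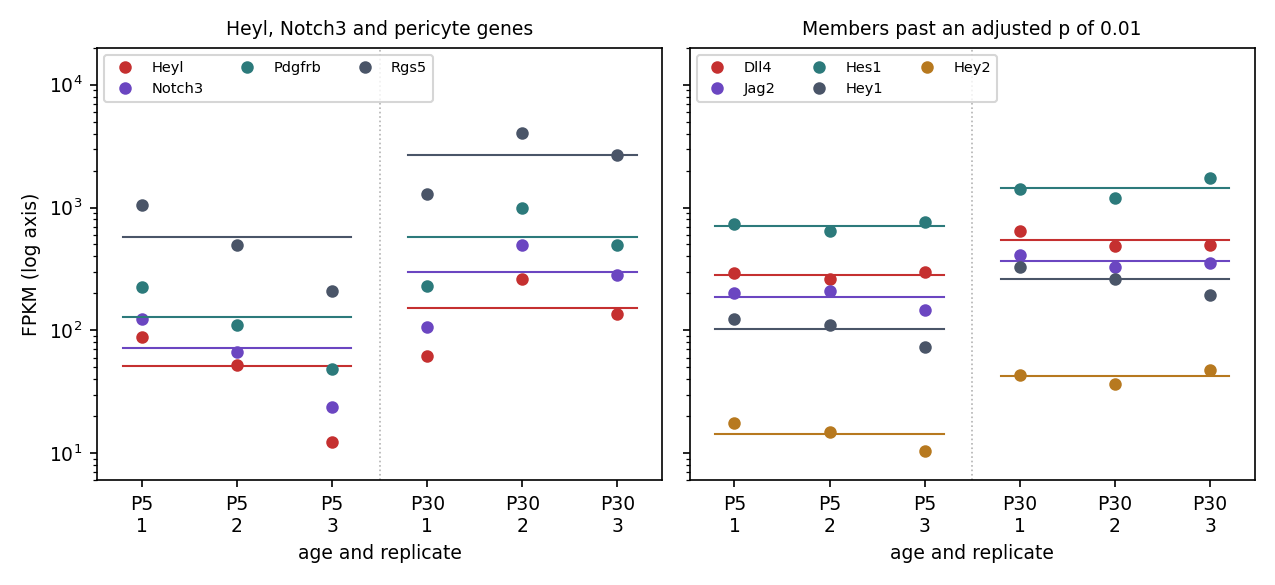
FPKM on a log axis in each isolation, with lines at the mean of each age, for Heyl with Notch3, Pdgfrb and Rgs5 (left) and for Dll4, Jag2, Hes1, Hey1 and Hey2 (right). On the left all 4 genes are lowest in P5 replicate 3 and highest in P30 replicate 2, and on the right every P30 point of a gene is above its P5 points.

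The order of the 10 genes by mean FPKM changed little at the ends. At P5 it ran Hes1, Notch1, Notch4, Dll4, Jag2, Jag1, Hey1, Dll1, Heyl and Hey2, and neighbours overlapped except at Hes1 to Notch1 and Dll4 to Jag2. At P30 it ran Hes1, Dll4, Notch1, Notch4, Jag2, Hey1, Jag1, Heyl, Dll1 and Hey2, and neighbours did not overlap at Hes1 to Dll4, Dll4 to Notch1, Hey1 to Jag1 and Dll1 to Hey2. Dll4 was therefore below the receptors by mean at P5 but above both at P30, with no overlap with Notch1.

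Ratios within a sample do not depend on a scaling factor shared by all its genes, which the authors' correction for GC content is not. The ages were compared for 5 ratios by exact two-sided permutation tests, for which p = 0.1 is the smallest possible with 3 isolations per age. Dll4 to Jag1 was 1.76, 1.90 and 2.60 at P5 and 4.42, 2.81 and 3.21 at P30. Every P30 ratio was above every P5 ratio, with a log2 difference of 0.73 (exact p = 0.1, 0.5 adjusted over the 5 ratios). For the other ratios the ages overlapped. The log2 differences were -0.05 for Dll4 to Jag2 (exact p = 0.9), -0.07 for Notch4 to Notch1 (exact p = 0.7), 0.34 for Hey1 to Hes1 (exact p = 0.5) and 0.23 for Hey2 to Hey1 (exact p = 0.9), each 0.9 after adjustment. The summed FPKM of the 4 targets was 960, 816 and 863 at P5 and 1849, 1753 and 2113 at P30, 2.17-fold in the mean, and Hes1 made up 81.0% ± 6.86 and 75.6% ± 6.96 of it (SD, n = 3 each).

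Because the cells are ECs, the same values were also set against the geometric mean of the 10 endothelial markers, which was 1774 ± 77.5 at P5 and 2178 ± 179 at P30 (SD, n = 3 each). This moved the median of all genes from -0.10 to -0.39 and the calls over all genes from 735 higher and 726 lower at P30 to 526 higher and 1348 lower. On that scale the log2 differences were 0.63 for Dll4, 0.68 for Jag2, 0.72 for Hes1, 1.05 for Hey1 and 1.24 for Hey2. Dll4, Jag2, Hey1 and Hey2 kept an adjusted p under 0.01, and Hes1 did not (limma adjusted p = 0.0124). Jag1 and Dll1 changed sign, to -0.10 and -0.11, and the receptors came to 0.09 for Notch1 and 0.02 for Notch4. With quantile normalization Hes1 also missed the limit (log2 difference 0.70, limma adjusted p = 0.0177).

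**Figure D3:**
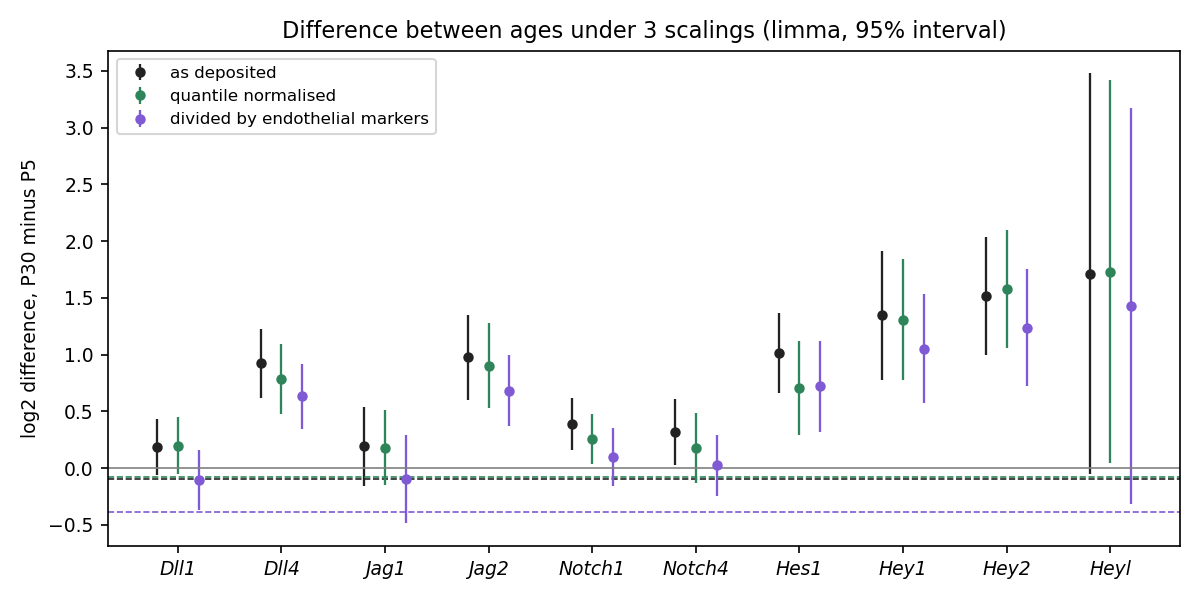
Log2 difference, P30 minus P5, of each of the 10 genes (limma coefficient) with the values as deposited, after quantile normalization and divided by the endothelial markers, with 95% intervals as bars and the median of all genes under each scaling as dashed lines. Dll4, Jag2, Hes1, Hey1 and Hey2 stay above 0 under all 3 scalings, whereas Dll1 and Jag1 lie on both sides of it.

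Of 54 other genes of the pathway, 45 were tested in limma, 3 rose and 1 fell past both limits, and 6 rose and 3 fell by adjusted p alone. As shares of those tested, 6.67% rose and 2.22% fell past both limits, and 13.3% rose and 6.67% fell by adjusted p alone, beside the shares of all genes given above. Their median log2 difference was 0.16. Dll3, Dlk2, Hes2, Hes5 and Helt were listed at 0 in all samples. Among the other receptors and ligands (3 of 6 tested), Dlk1, an imprinted ligand-like protein without the domain that activates Notch, was listed at 18.3, 19.9 and 3.69 at P5 and 222, 157 and 341 at P30 (log2 difference 4.21, SE 0.58, limma adjusted p = 0.00177). This was the largest difference of any pathway gene tested.

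The list of other target genes (7 of 11 tested) also held genes of arterial ECs, and whether its members answer to Notch here was not tested. In it, 2 rose past both limits, against 5.89% of all genes, and 0 fell, against 5.82%. At an unadjusted p under 0.05 in limma, 1 was lower, against 28.8%. Sox17, a transcription factor of arterial ECs, had 90.2, 86.0 and 67.5 at P5 and 254, 221 and 194 at P30 (log2 difference 1.45, SE 0.15, limma adjusted p = 0.000611). Bmx, a kinase of arterial ECs, had 19.2, 24.1 and 9.38 at P5 and 84.3, 76.2 and 43.1 at P30 (log2 difference 1.93, SE 0.38, limma adjusted p = 0.00720). The ages were apart for both. The Bmx call was lost without the trend (limma adjusted p = 0.0160) and without any of the isolations except P30 replicate 3 (0.0135 to 0.0240). Efnb2, the arterial ephrin ligand and the highest gene of this list, went slightly the other way, with 515, 474 and 479.6 at P5 and 405, 461 and 450.4 at P30 (log2 difference -0.16, limma adjusted p = 0.214). Its P30 isolations were all below its P5 ones. So were those of Hes6, named after its values were seen (log2 difference -0.66, limma adjusted p = 0.0122). Of the 7 tested, 2 were thus apart upward and 2 downward, against 22.0% and 33.0% of all genes tested. Nrarp, a feedback inhibitor of the pathway named here after its values were seen, had 301, 322 and 289 at P5 and 304, 329.8 and 462 at P30, and the ages overlapped (log2 difference 0.24, limma adjusted p = 0.262).

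By adjusted p alone, 1 of the 10 genes of receptor cleavage tested rose and 1 fell. Of the 10 genes of trafficking tested, 2 rose and 2 fell. Among all genes tested, 8.51% rose and 10.7% fell by that limit. Of 10 genes of receptor cleavage, Adam10, the protease of the first cut after ligand binding, was the highest. It fell from 599, 576 and 611 at P5 to 322, 374 and 319.8 at P30 (log2 difference -0.82, SE 0.10, limma adjusted p = 0.00103). Psenen, a γ-secretase subunit, rose by 0.70 on the log2 scale (limma adjusted p = 0.00742). Of 12 genes of ubiquitination and trafficking, 10 were tested. Dtx4, a Deltex ubiquitin ligase, had 57.7, 76.2 and 73.5 at P5 and 8.15, 27.3 and 13.02 at P30, so the ages were far apart (log2 difference -2.18, SE 0.38, limma adjusted p = 0.00474). Mib1, the ubiquitin ligase that ligands need to signal, had a log2 difference of -0.78 (limma adjusted p = 0.00794), while its relative Mib2 had 0.88 (limma adjusted p = 0.00586) and the Notch inhibitor Numb 0.56 (limma adjusted p = 0.00599). Psenen, Mib1, Mib2 and Numb were named after their values were seen, and none of them passed 0.01 in limma without the trend (adjusted p of 0.0101 to 0.0175) or with any P5 isolation left out (0.0141 to 0.0412). The Dtx4 call was also lost without the trend (0.0115) and without any P5 isolation or P30 replicate 3 (0.0137 to 0.0273). Dtx3, the highest of the trafficking genes, did not pass (log2 difference 0.62, limma adjusted p = 0.0315).

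None of the 5 genes of receptor glycosylation rose or fell in limma, and at an unadjusted p under 0.05, 1 was higher and 0 were lower at P30, against the 20.7% and 28.8% of all genes. Mfng, a Fringe enzyme and the highest of them, had a log2 difference of 0.07 (limma adjusted p = 0.682). None of the 10 nuclear partners passed either, with 2 higher and 2 lower at an unadjusted p under 0.05, against the same shares of all genes. Rbpj, named after its values were seen, had 64.8, 61.1 and 57.4 at P5 and 43.7, 44.8 and 43.4 at P30. Its ages did not overlap, with the lower values at P30, where the targets Hes1, Hey1 and Hey2 had their higher ones, but its log2 difference of -0.47 missed the limit (SE 0.12, limma adjusted p = 0.0176). Snw1, the highest nuclear partner, had a log2 difference of -0.30 (limma adjusted p = 0.0616).

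**Figure D4:**
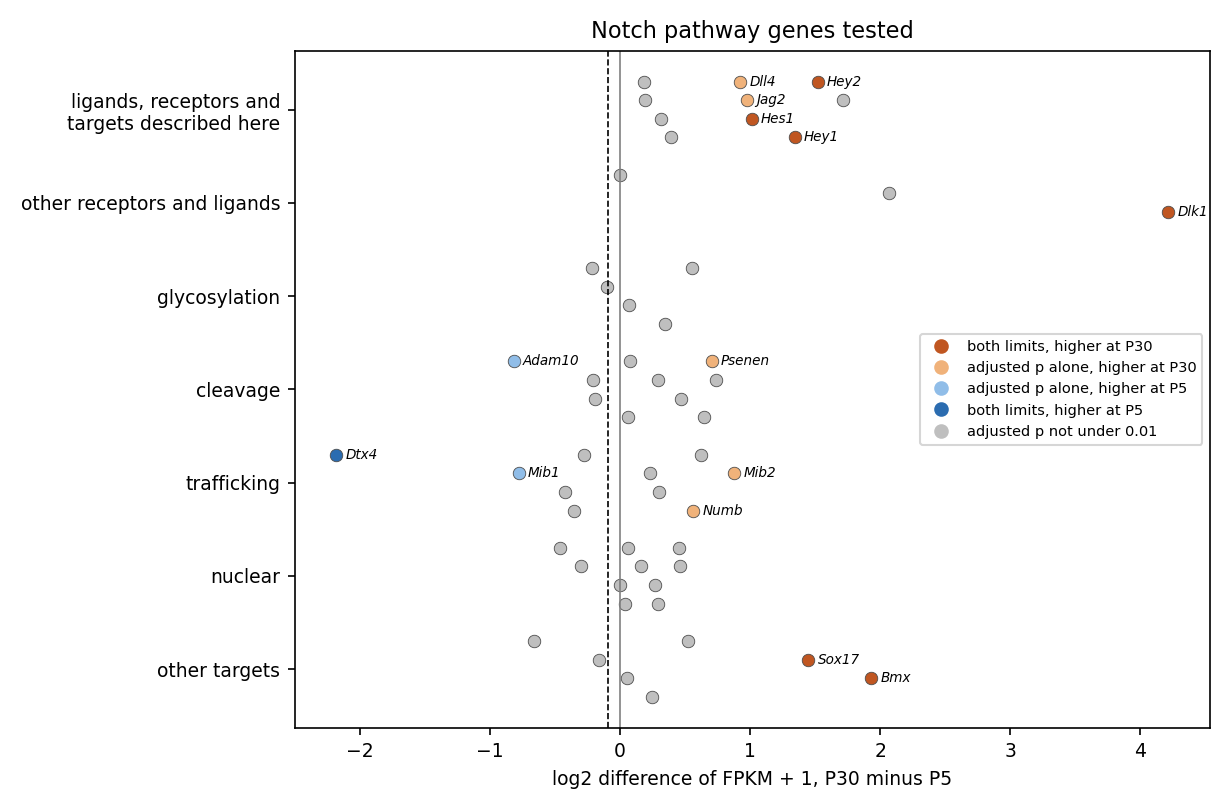
Log2 difference, P30 minus P5 on the log2(FPKM + 1) scale, of each pathway gene tested, 1 point per gene by list and coloured by which limits it passed, with a dashed line at the median of all genes tested (-0.10). Genes past an adjusted p of 0.01 are named, from Dtx4 at -2.18 to Dlk1 at 4.21.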

How the data were processed

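RNAseq of sorted choroid ECs was available at both ages with 3 isolations each, grouped by the sample titles. The authors prepared cDNA with an unstranded kit, used TopHat for alignment to mm9, and Cufflinks for FPKM normalized for GC content and to the upper quartile. CASAVA 1.8.2 is listed in the submitters' processing notes, and the other versions and the annotation are not given in the sources used here. The authors deposited 1 FPKM per gene symbol and sample, and ran DESeq2 on read counts that were not used here. Depth is therefore unknown, and no counting error is given.

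From the deposited FPKM, log2(FPKM + 1) was fitted with limma 3.58.1 in R 4.3.3 (lmFit, eBayes with trend, no block) over the 12481 of 22026 genes with a mean of at least 5 in at least 1 age, with Benjamini-Hochberg adjustment. Limits were an adjusted p of 0.01 and, for a call, 2-fold in mean FPKM + 1. On this scale changes of low genes are understated. Two-sided exact permutation tests were used for ratios. Summed FPKM is given without a test. Python 3.11.15, pandas 2.3.3, numpy 2.4.6, scipy 1.17.1 and matplotlib 3.10.9 were used, and the fit was tested on simulated data. Gene positions are those of GENCODE M1 (mm9), and promoter sequences those of RefSeq (GRCm38.p6), with no conversion between builds.

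The genes, the pathway and marker lists and the tests were chosen with earlier results of these data known. Genes named beyond the 10 were those past both limits, the gene of highest mean FPKM in each pathway list, and the 2 highest at P30 among pericyte and among smooth muscle markers. Exceptions are stated. No pair of samples held identical values. Alternatives were other pseudocounts, filters, scalings and limits, a replicate block, and each isolation left out.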

Additional observations from a re-analysis of the deposited data

How the results depend on the processing

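The number of the 10 genes past both limits and higher at P30 was 3 with the values as deposited. It was 0 with no filter on low values, and between 0 and 4 with each isolation left out in turn, lowest without P5 replicate 2. Of the other pathway genes, 3 were higher at P30 past both limits, and 1 with no filter. The 1 gene higher at P5, Dtx4, was lost with no filter and without the trend (0 in each), became 3 after division by the endothelial markers (Dtx4, Adam10 and Mib1), and the count ranged from 0 to 1 with isolations left out. With no filter, 22026 genes were adjusted for in place of 12481, and 242 genes were higher and 296 lower at P30 in all, against 735 and 726. With an adjusted p of 0.05, 1130 were higher. Without P5 replicate 1, 2 or 3, 427, 291 and 297 genes were lower at P30, and without P5 replicate 2 or 3, 404 and 396 were higher.

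With a replicate block, the number of the 10 genes past both limits was again 3, and the calls over all genes were 585 higher and 524 lower. Psenen, Mib1, Mib2 and Numb missed an adjusted p of 0.01 with the block (0.0111 to 0.0248). The deviations of isolations with the same number did not go together (correlations of -0.06, -0.09 and -0.03), and no isolation correlated best with its own number, so the numbers were not taken as pairs.

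Divided by the endothelial markers, the log2 differences of the summed FPKM were 0.45 for ligands, 0.062 for receptors and 0.82 for targets, against 0.74, 0.36 and 1.11. The ratio of Dll4 to Jag2 changed sign without P5 replicate 3 and ranged from -0.21 to 0.15 with isolations left out. That of Notch4 to Notch1 did so without P5 replicate 2 (0.017) and without P30 replicate 2 (range -0.15 to 0.044), and that of Hey2 to Hey1 without P30 replicate 3 (range -0.048 to 0.39). The causes were not tested. In the 16 alternatives, Dll4, Jag2, Notch1, Notch4, Hes1, Hey1, Hey2 and Heyl kept their direction, with Hey2 between 1.24 and 1.67 and Hes1 between 0.70 and 1.14. The other filters, the fit without the trend, the other limits and the replicate block leave a log2 difference unchanged, so they could not alter a direction. Only the other pseudocounts, the other scalings and the isolations left out could. Dll1 and Jag1 each changed sign in 1 of the 16, the division by the endothelial markers. The spread was wider at P30, with a median SD of log2(FPKM + 1) over genes of 0.26 against 0.13 at P5. With unknown depth, whether a listed 0 means absence cannot be told.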
